A study of Mus musculus with 8 samples.

Results

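The homeobox genes described here are Otx1, Otx2, Obox1, Obox2, Obox3, Obox5, Obox6 and Crxos, 8 genes of which 7 are among the 20660 with a named probe on the array. They were chosen by name, with the comparison of P150KD and siControl morulae already known from these arrays, and every probe whose RefSeq accession joins to one of the symbols was taken. The 7 genes had 12 probes in all, and Obox2, with no probe joined to it, was not analysed here. All 12 probes were tested: each stood well above background in 3 or more of the 8 hybridisations, counted over both groups. Because the genes were chosen with this contrast known, their differences are given as a description with standard errors and without p-values.

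P150KD embryos (5 arrays) had received siRNA against P150 at the 1-cell stage, and siControl embryos (3 arrays) had received control siRNA. Chaf1a encodes P150, a subunit of CAF-1, the chaperone that deposits new histones behind the replication fork. All embryos were mouse, came from in vitro fertilisation and were taken as morulae at embryonic day 3.0, with 10 pooled embryos per array; no strain is given in the labels. Total RNA was amplified in 2 rounds and read on one-colour arrays. The labels do not say whether the arrays of a group hold separate collections of embryos, so standard errors and p-values measure the spread between these arrays, which may be technical. Levels are given on the log2 scale with each array's 75th percentile set to 0, and levels of different probes cannot be compared with each other. In pooled embryos, fewer cells of a type and less RNA per cell cannot be told apart.

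Homeobox genes encode transcription factors that bind DNA through a homeodomain. Otx1 and Otx2 belong to the paired-like class, as does Crx, and their proteins recognise sites with the letters TAATCC. In the mouse, Otx2 is needed for the anterior of the embryo and the head, and it acts earlier when epiblast cells leave the naive pluripotent state. Obox genes form a cluster of related, mostly oocyte- and early-embryo-expressed genes that is found in rodents, and several of their products take part in switching on the mouse embryonic genome. Crxos lies beside Crx next to that cluster and encodes a homeodomain protein found in preimplantation embryos and embryonic stem cells.

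Otx2 was lower in P150KD morulae, Obox1, Obox5 and Obox6 were higher, the 3 Obox3 probes had higher means without passing the threshold, and the 3 Crxos probes differed by -0.16 to -0.12, with the sign turned when arrays were scaled to a housekeeping list. That scaling moved the median difference of all tested genes to 0.27, in place of -0.24, so each difference below also depends on the scaling by about that much. Otx2 differed by -4.73 on the log2 scale (SE 0.63), a signal 26.6 times lower in P150KD. The 4 Obox genes with probes differed by 1.46 (Obox6, SE 0.21) to 6.41 (Obox1, SE 0.99), and all 7 Obox probes had the higher mean in P150KD. Of the 12 probes, 4 were called higher and 1 lower at a limma adjusted p under 0.05, beside 6.28% called higher and 7.66% called lower among all 30348 tested probes (13.9% in either direction). The groups did not overlap for 5 probes that were higher and 1 that was lower, beside 9.36% and 17.7% of all tested probes (27.1% in either direction). Nothing is read from these counts, since the same contrast was known when the genes were chosen and some of the probes passed the filter through the P150KD arrays.

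The siRNA target was checked first. Chaf1a read -1.47, 0.52, -0.48, -1.45 and -0.23 on P150KD replicates 1 to 5, against 2.40, 2.09 and 2.27 on siControl replicates 1 to 3 (difference -2.88, SE 0.48). Each P150KD array was below every siControl array, and replicate 2 kept the highest Chaf1a signal of the 5. The share of spots well above background was 50.1% to 55.9%, and 0 spots were saturated. All arrays lay on 1 slide. Its first column held P150KD replicate 1 and the 3 siControl arrays, and its second column the other P150KD arrays, so the position on the slide and the group are only separable through that 1 array. The value within the first column is therefore given beside the members below.

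Otx2, on chromosome 14, was measured by 1 probe that was well above background on all 8 arrays. It read -0.42, 1.71, -1.18, -0.95 and -0.17 on P150KD replicates 1 to 5, against 4.82, 4.37 and 4.39 on siControl replicates 1 to 3. Every P150KD array was below every siControl array, with a gap of 2.66 between the groups. As signals before scaling, the P150KD arrays read 806, 3493, 508, 556 and 1156, against 32566, 23663 and 17172 on the siControl arrays. The means were -0.20 ± 1.14 in P150KD and 4.53 ± 0.26 in siControl (SD, n = 5 and 3). The P150KD arrays spanned 2.89 and the siControl arrays 0.45, and P150KD replicate 2 was the highest of its group. It was also the highest for Chaf1a, for Otx1 and for Zfp661 and Mfsd13a, named below, but not for Id2. A link between the Otx2 and Chaf1a levels was not tested. Within the first slide column, P150KD replicate 1 lay 4.95 below the siControl mean, which equals the difference when blocked on the slide column. Under that block limma did not call Otx2, and P150KD replicate 1 was the only P150KD array that carried the contrast. Leaving out any 1 array gave differences from -5.21 (without P150KD replicate 2) to -4.49 (without P150KD replicate 3). Of 14601 tested genes, 20 had a lower difference than Otx2, and of 109 tested genes in the homeobox lists described below, 0 did.

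Otx1, on chromosome 11, which acts with Otx2 in the developing mouse brain, was dim. Its probe read -7.23, -1.64, -7.04, -2.74 and -4.26 on P150KD replicates 1 to 5, against -7.28, -4.84 and -7.24 on siControl replicates 1 to 3. It was well above background on 3 P150KD arrays and 1 siControl array, and the groups overlapped. The difference was 1.87 with an SE of 1.44, and it changed sign to -0.77 within the first slide column, where P150KD replicate 1 was not well above background.

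**Figure D1:**
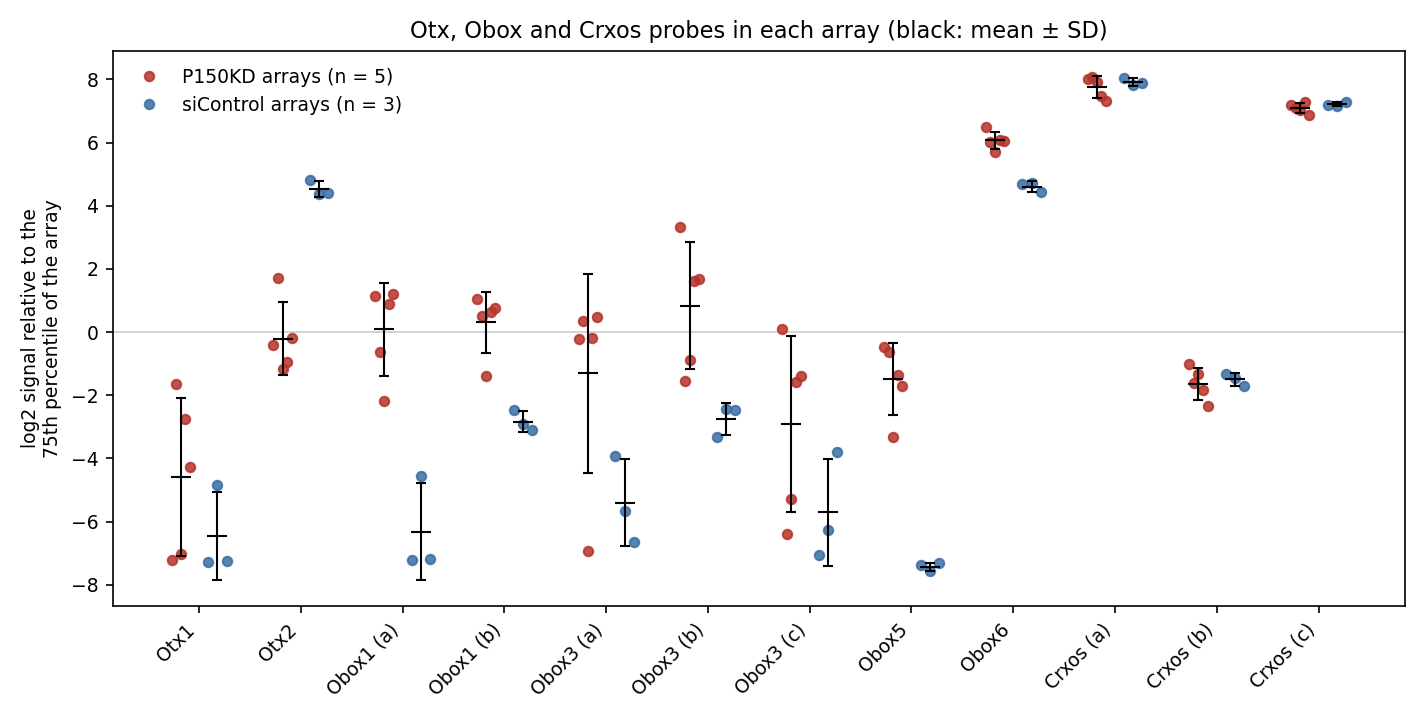
Levels of the 12 probes on the y axis (log2 signal minus that of the array's 75th percentile) with P150KD arrays (red, n = 5) left of siControl arrays (blue, n = 3) and the mean ± SD in black; letters a to c separate probes of 1 gene. Otx2 is below all siControl arrays in P150KD (gap 2.66), the Obox1, Obox5 and Obox6 probes are above them, and the Crxos probes overlap.

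Obox1, on chromosome 7, had a pair of probes, both higher in P150KD. On the probe marked b, which was well above background on all arrays, it read 1.03, 0.50, -1.40, 0.63 and 0.77 on P150KD replicates 1 to 5, against -2.47, -2.92 and -3.11 on siControl replicates 1 to 3. Here the groups were 1.07 apart and the difference was 3.14 (SE 0.55), an 8.83-fold higher signal in P150KD. On the probe marked a, the P150KD arrays read 1.15, -0.63, -2.17, 0.90 and 1.22, against -7.23, -4.54 and -7.19 on the siControl arrays. Only 1 of those siControl arrays was well above background, so the difference of 6.41 (SE 0.99) depends on values near the floor; it was 3.66 with normexp background correction and an offset of 50. Both probes had P150KD replicate 3 as the lowest of its group, and their differences within the first slide column were 7.47 (a) and 3.87 (b).

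Obox5, in the same cluster, was measured by 1 probe. Its P150KD arrays read -0.46, -0.62, -3.31, -1.36 and -1.71, against -7.38, -7.57 and -7.32 on the siControl arrays. The probe was well above background on all 5 P150KD arrays and 0 of 3 siControl arrays. It was tested only through the P150KD arrays, so the size of its difference depends on values near the floor. The P150KD mean was 12.6-fold above the dimmest well-above-background signals of the siControl arrays. That is no strict minimum: with normexp background correction and an offset of 50 the difference was 2.68 on the log2 scale. The measured means were -1.49 ± 1.14 in P150KD and -7.42 ± 0.13 in siControl (SD, n = 5 and 3), 5.93 apart (SE 0.62). Within the first slide column the measured difference was 6.96.

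Obox6, which has been used to raise the yield of reprogramming to pluripotency in mouse cells, was bright in both groups. It read 6.50, 6.01, 5.71, 6.06 and 6.05 on P150KD replicates 1 to 5, against 4.68, 4.73 and 4.42 on siControl replicates 1 to 3. All P150KD arrays were above all siControl arrays, with a gap of 0.98. The difference was 1.46 (SE 0.21), a 2.75-fold higher signal, and 1.89 within the first slide column. Of the Obox probes it varied least, with a range of 0.79 over the P150KD arrays.

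Obox3 was measured by 3 probes that gave higher means in P150KD, none of them past the threshold, though probes a and b passed it under some alternatives given at the end. On the probe marked b, well above background on all arrays, the P150KD replicates read 3.32, -1.54, -0.88, 1.62 and 1.67, against -3.32, -2.45 and -2.46 on the siControl replicates. The groups did not overlap, and the difference was 3.58 (SE 1.09). The P150KD arrays spread over 4.86, with replicate 1 high and replicates 2 and 3 low; without P150KD replicate 2 the difference was 4.18. The probe marked a read -0.23, 0.34, -6.93, -0.19 and 0.47 in P150KD, against -3.93, -5.66 and -6.64 in siControl. Replicate 3 of P150KD was at background there while the other four were above every siControl array, and without that array the difference was 5.51, in place of 4.10 (SE 1.77). The probe marked c read 0.09, -6.40, -5.29, -1.59 and -1.38 in P150KD, against -7.06, -6.27 and -3.81 in siControl, with overlap between the groups and a difference of 2.80 (SE 1.62). The probes also disagreed on the order of the P150KD arrays: replicate 2 was the second highest on probe a and the lowest on probes b and c. Within the first slide column the differences were 5.18 (a), 6.06 (b) and 5.80 (c).

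Across the 7 Obox probes, P150KD replicate 3 was the lowest of its group on 5 and replicate 2 on 2, and replicate 1 was the highest on 5 and replicate 5 on 2. Obox7, a relative in the same cluster that was not among the 8 genes, read -0.44, -0.67, -2.82, -1.06 and -1.80 in P150KD, against -4.72, -7.26 and -3.02 in siControl. Its difference was 3.64 (SE 0.96), also with replicate 3 as the lowest P150KD array. It was well above background on 2 of 3 siControl arrays, so the size depends on a value near the floor. Obox7 was named after its values were seen and is given as a description. The gap between its groups was 0.20. Obox genes are close copies of each other, and the files hold no probe sequences, so whether a probe also read its relatives was not tested and the probes are not independent genes.

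The cluster's promoters are shown because several Obox genes share sequence at their starts. RefSeq windows of the GRCm38.p6 build, 250 bases before to 50 bases after the annotated gene start, were given for 6 of the 8 genes. Capitals in the Obox windows mark the longest run common to Obox1, Obox3 and Obox5, 42 bases long. Each window is given 5′ to 3′ on the strand of its gene.
Obox1 (chr7:15547007-15547306, + strand): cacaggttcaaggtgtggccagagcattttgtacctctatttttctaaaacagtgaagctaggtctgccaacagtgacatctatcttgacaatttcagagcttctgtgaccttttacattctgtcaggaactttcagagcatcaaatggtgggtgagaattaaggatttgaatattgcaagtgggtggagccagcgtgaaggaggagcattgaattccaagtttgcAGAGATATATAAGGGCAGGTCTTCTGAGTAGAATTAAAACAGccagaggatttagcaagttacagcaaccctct
Obox3 (chr7:15639728-15640027, - strand): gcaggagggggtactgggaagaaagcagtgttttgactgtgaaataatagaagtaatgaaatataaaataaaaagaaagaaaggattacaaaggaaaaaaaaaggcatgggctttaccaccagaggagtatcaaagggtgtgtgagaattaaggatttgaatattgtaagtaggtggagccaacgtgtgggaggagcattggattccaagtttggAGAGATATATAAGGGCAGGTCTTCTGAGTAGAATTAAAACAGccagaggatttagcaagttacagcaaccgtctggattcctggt
Obox5 (chr7:15750120-15750419, + strand): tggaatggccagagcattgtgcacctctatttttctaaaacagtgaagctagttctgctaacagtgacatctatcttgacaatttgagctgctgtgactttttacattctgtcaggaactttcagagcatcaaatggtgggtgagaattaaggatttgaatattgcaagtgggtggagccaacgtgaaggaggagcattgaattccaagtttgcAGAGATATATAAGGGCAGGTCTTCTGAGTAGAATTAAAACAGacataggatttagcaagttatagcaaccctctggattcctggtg
The run starts 24 bases before the annotated start of Obox1, 35 before that of Obox3 and 36 before that of Obox5. Of 32851 promoter windows of this length, 4 hold it, those of Obox1, Obox3, Obox5 and Obox7. In a global alignment 88.1% of the columns were identical between Obox1 and Obox5, 68.8% between Obox3 and Obox5, and 66.7% between Obox1 and Obox3. The window of Obox2, whose annotated start lies further upstream in the matching sequence, shares an unbroken run of 203 bases with that of Obox1. The marked run contains TATATAA, the letters of a TATA box, which was searched on both strands and is present in 3.24% of all windows.

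The letters TAATCC, searched on both strands with GGATTA as the reverse, were present in 7.06% of all windows. They were found in the Obox3 window, in 1 of 4 windows of Otx2 and in 0 of 3 windows of Crxos. The Otx2 window that holds them is shown with the match, GGATTA, in capitals, since it places the letters known from the binding of OTX proteins beside a start of Otx2 itself. A match is a description of the sequence only, and binding was not measured here.
Otx2 (chr14:48665060-48665359, - strand): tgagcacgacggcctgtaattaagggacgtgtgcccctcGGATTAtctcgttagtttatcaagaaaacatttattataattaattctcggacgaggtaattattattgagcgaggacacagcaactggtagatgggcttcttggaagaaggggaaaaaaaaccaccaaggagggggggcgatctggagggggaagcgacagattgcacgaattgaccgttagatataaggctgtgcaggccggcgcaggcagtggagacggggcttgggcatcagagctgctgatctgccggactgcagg

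Crxos differed little between the groups on all 3 probes. The probe marked a read 8.02, 8.08, 7.92, 7.47 and 7.31 in P150KD, against 8.06, 7.82 and 7.89 in siControl. The probe marked c, which names another transcript of the gene, read 7.18, 7.09, 7.02, 7.27 and 6.89 in P150KD, against 7.19, 7.15 and 7.28 in siControl. The dim probe marked b read -1.02, -1.61, -1.33, -1.84 and -2.35 in P150KD, against -1.32, -1.46 and -1.72 in siControl. The groups overlapped on each probe. The differences were -0.16 (SE 0.23), -0.12 (SE 0.16) and -0.13 (SE 0.31) for a, c and b. The sign turned when the arrays were scaled to a housekeeping list, to 0.34, 0.39 and 0.38, and on some of the probes under other alternatives. Within the first slide column the differences were 0.10, -0.03 and 0.49 for a, c and b. Crx, the retinal relative transcribed next to Crxos, was not well above background on any array.

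**Figure D2:**
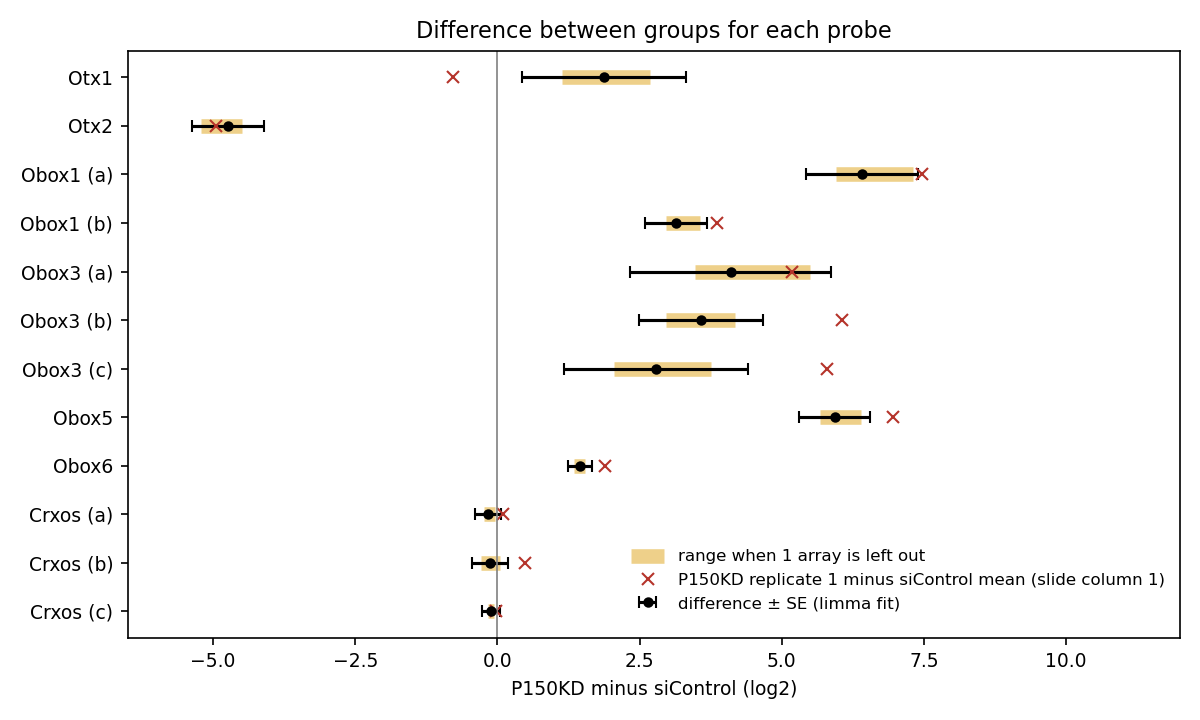
Difference between the group means, P150KD minus siControl, on the x axis (log2) for each probe: black points with SE, a yellow bar for the range when 1 array is left out, and a red cross for P150KD replicate 1 alone minus the siControl mean within the first slide column. Otx2 lies at -4.73, the 7 Obox probes between 1.46 and 6.41, and the 3 Crxos probes between -0.16 and -0.12 (above 0 when scaled to the housekeeping list).

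Genes with values most like those of Otx2 were found by the root mean square difference over the 8 arrays, after subtracting from each probe its own siControl mean; this compares sizes and not only directions. Of 14600 genes, Id2, which encodes an inhibitor of helix-loop-helix factors, was nearest at 0.81. It read 0.53 ± 0.42 in P150KD and 5.18 ± 0.31 in siControl (SD, n = 5 and 3). Next were the adaptor gene Dok1 (0.90), the zinc finger gene Zfp661 (0.91), the galectin gene Lgals1 (0.94) and Mfsd13a (0.94). All 5 were lower in P150KD, with differences from -4.64 (Id2, SE 0.29) to -3.69 (Zfp661, SE 0.65). For the Obox1 probe b the nearest genes were Tdpoz8 (0.34), Pou3f3 (0.40) and Tdpoz7 (0.45), of which Pou3f3 was well above background on 0 of 3 siControl arrays. For Obox6 they were Lrrc42 (0.10), Lonp2 (0.10) and Ccdc8 (0.12), and Ccdc8 too was well above background on 0 of 3 siControl arrays. No likeness is given for Obox5, whose siControl values lie at background. For the bright Crxos probe a they were the ribosomal protein genes Rps15a (0.05), Rpl36al (0.07) and Rpl38 (0.07).

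**Figure D3:**
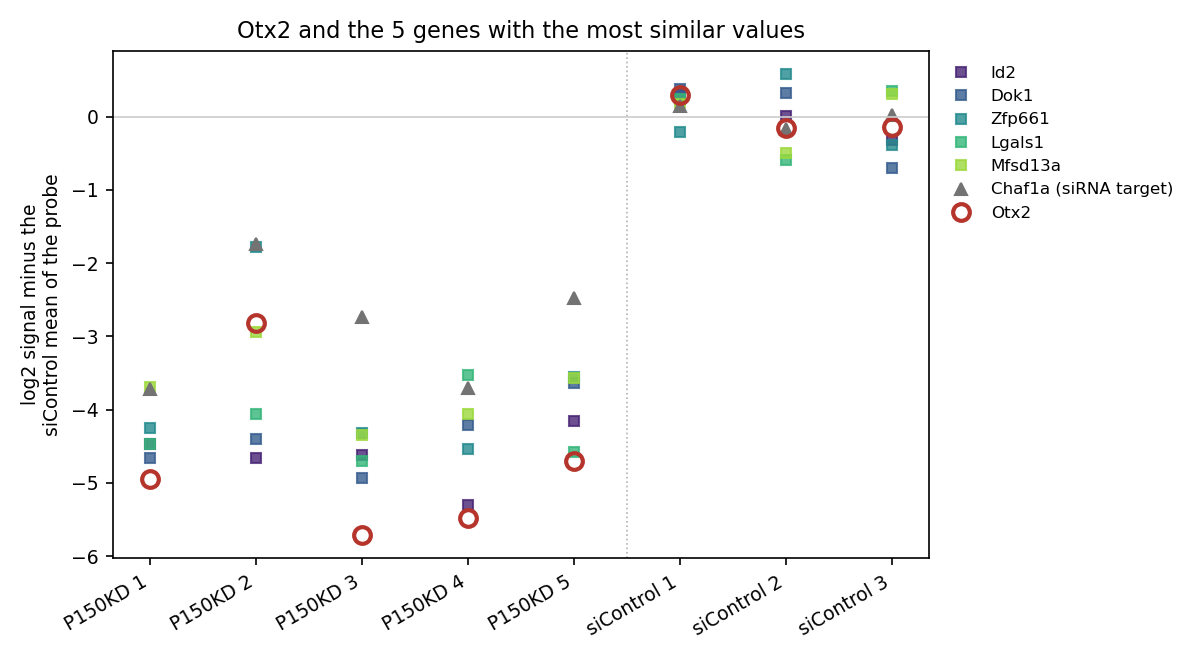
Values of Otx2 (open red circles), its 5 nearest genes (squares) and Chaf1a (triangles) on each array, as log2 signal minus the siControl mean of the probe on the y axis, with P150KD arrays left of siControl arrays. On P150KD replicate 2 Otx2, Chaf1a, Zfp661 and Mfsd13a are at their highest among the P150KD arrays, and Id2, Dok1 and Lgals1 are not.

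Homeobox genes outside the 8 were called in both directions. Of 25 tested genes of the paired-like class and the Rhox and Obox families, 6 rose and 0 fell at a limma adjusted p under 0.05 (2 had lower signals at an unadjusted p under 0.05), beside 6.65% risen and 10.5% fallen among all 14601 tested genes. Their median difference was 0.90, beside -0.24 for all genes. Duxbl1, a relative of the 2-cell activator Dux, rose by 2.97 (SE 0.39, limma adjusted p = 0.00522). The X-linked reproductive homeobox genes Rhox6 (6.16, SE 1.07), Rhox8 (0.92, SE 0.20) and Rhox9 (1.47, SE 0.38) rose too, as did Obox7. Rhox6 read -2.41, -7.49 and -3.31 on the siControl arrays and was well above background on 2 of them. The size of its difference therefore depends on a value near the floor. Without P150KD replicate 1 or 4, or siControl replicate 1 or 2, the rises numbered 3, and 2 when the slide column was a block. A further 10 genes of the list were not well above background on any array.

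Among 84 tested homeobox genes of other classes, 8 rose and 5 fell, beside 6.65% risen and 10.5% fallen among all tested genes, with a median of 0.27. The LIM gene Lhx9 rose by 3.24 (SE 0.35, limma adjusted p = 0.00306) and was well above background on 2 of 3 siControl arrays. Pknox2 was well above background on 0 of 3. Its P150KD mean was 23.6-fold above the dimmest well-above-background signals of the siControl arrays, which is no strict minimum. Pbx2, a partner of Hox proteins, fell by 1.60 (SE 0.22, limma adjusted p = 0.00588), and Cux2 rose by 1.10 (SE 0.19). The list's counts were 13 risen and 2 fallen when the arrays were scaled to the housekeeping list. Blocking on the slide column gave 0 risen (6 at an unadjusted p under 0.05 in limma) and 1 fallen. Leaving out 1 array gave 4 risen without P150KD replicate 5 or siControl replicate 1, and 5 without P150KD replicate 3 or 4 or siControl replicate 2. The falls numbered 3 without P150KD replicate 1, 2 or 4 or siControl replicate 2, and 1 without siControl replicate 1 or 3.

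Genes tied to Otx2 in the mouse epiblast and anterior embryo gave 1 rise and 3 falls among 35 tested, a share of 11.4% beside 17.1% of all genes. The de novo DNA methyltransferase gene Dnmt3b fell to 5.51 ± 0.19 in P150KD, against 6.84 ± 0.09 in siControl (SD, n = 5 and 3; limma adjusted p = 0.00508). Utf1, a chromatin factor of pluripotent cells, fell by 1.28 (SE 0.18, limma adjusted p = 0.00578), and Sox2, a core pluripotency factor, fell by 2.91 (SE 0.48, limma adjusted p = 0.0108). The gene that rose was En2, a homeobox gene of the midbrain, by 3.23 (SE 0.61), and it stands in the list of other homeobox genes too. En2 was well above background on 2 of 3 siControl arrays, so the size depends on values near the floor. Leaving out 1 array gave 0 rises without siControl replicate 2, 2 without P150KD replicate 1 and 3 without P150KD replicate 2, with 3 falls each time, while scaling to the housekeeping list gave 5 rises and 3 falls and blocking on the slide column gave 0 of either (2 higher and 4 lower at an unadjusted p under 0.05 in limma).

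**Figure D4:**
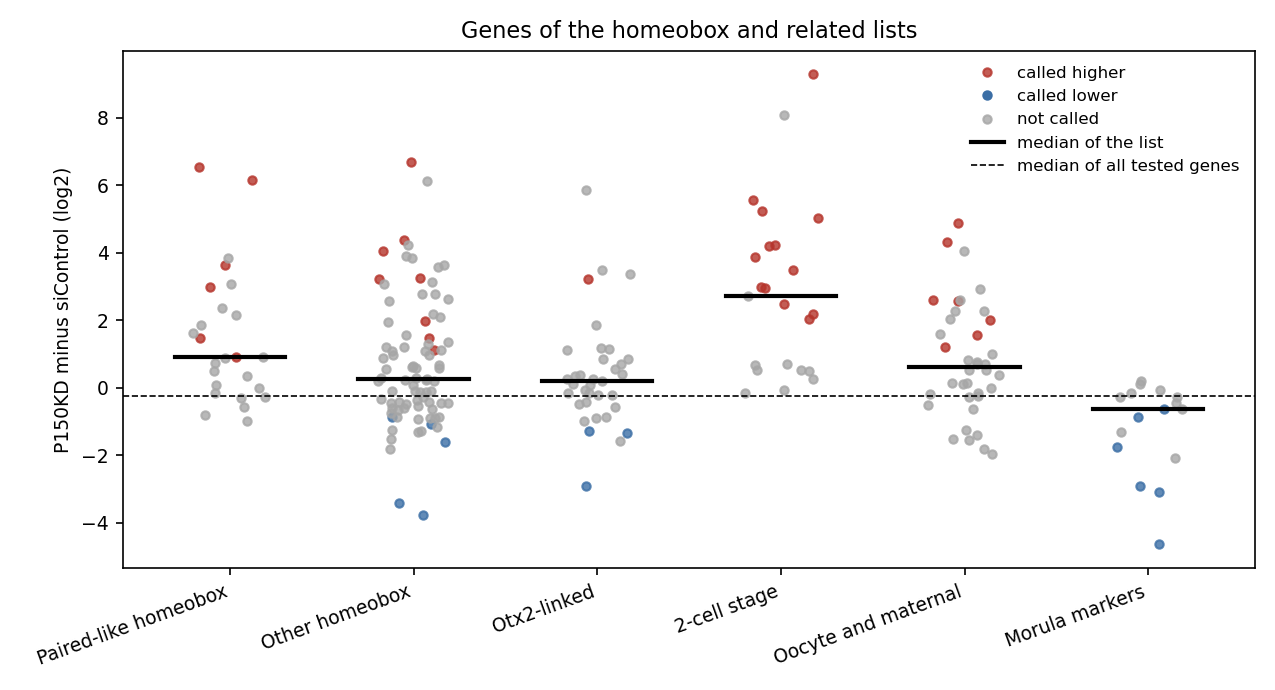
Difference of each tested gene, P150KD minus siControl, on the y axis (log2), by gene list; red and blue points were called higher and lower at a limma adjusted p under 0.05, black bars are list medians and the dashed line is the median of all genes at -0.24. The 2-cell list has its median at 2.70 and the Otx2-linked list at 0.20.

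Obox genes are known for their part in genome activation and in the oocyte, so genes of those stages are set beside them. Of 23 tested 2-cell genes, 13 rose and 0 fell (0 lower at an unadjusted p under 0.05 in limma), beside 6.65% risen and 10.5% fallen among all tested genes, with a median of 2.70 beside -0.24. Usp17lb, of a family of deubiquitinases, rose to 186-fold above the dimmest well-above-background signals of the siControl arrays. Usp17la rose by 5.23 (SE 0.56). Gm8300 rose by 3.88 (SE 0.45) and Gm2016 by 2.94 (SE 0.36). Many of these genes are near-identical copies. Of 38 tested oocyte and maternal genes, 7 rose and 0 fell (0 lower at an unadjusted p under 0.05 in limma), with a median of 0.62. The zona pellucida gene Zp3 rose by 2.60 (SE 0.26), Khdc1b by 2.58 (SE 0.30) and Khdc1a by 1.22 (SE 0.22). The histone chaperone gene Npm2 rose to -0.07 ± 0.28 in P150KD, against -2.07 ± 0.48 in siControl (SD, n = 5 and 3). Blocking on the slide column, 6 of the 2-cell genes and 3 of the oocyte genes rose. Without siControl replicate 1 the rises were 7 and 4, and 8 of the 2-cell genes rose without siControl replicate 2. Without P150KD replicate 2, 1 oocyte gene fell.

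Genes around the 8 were called in both directions or not at all. Next to the Obox and Crxos cluster on chromosome 7, the 10 nearest tested genes on each side gave 1 rise and 2 falls of 20, with a median of 0.14; these shares are near the 6.65% risen and 10.5% fallen among all tested genes. The gene that rose was Ehd2 (3.45, SE 0.60, limma adjusted p = 0.0123), and Cabp5 (-1.29, SE 0.26) and the DNA ligase gene Lig1 (-1.18, SE 0.21) fell. Around Otx2 1 gene of 20 rose and 3 fell (median -0.37, range -1.75 to 1.41), among them Gm6498, the tested gene listed just before it (-1.28, SE 0.25). Around Otx1 1 rose and 2 fell, with a median of -0.13.

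**Figure D5:**
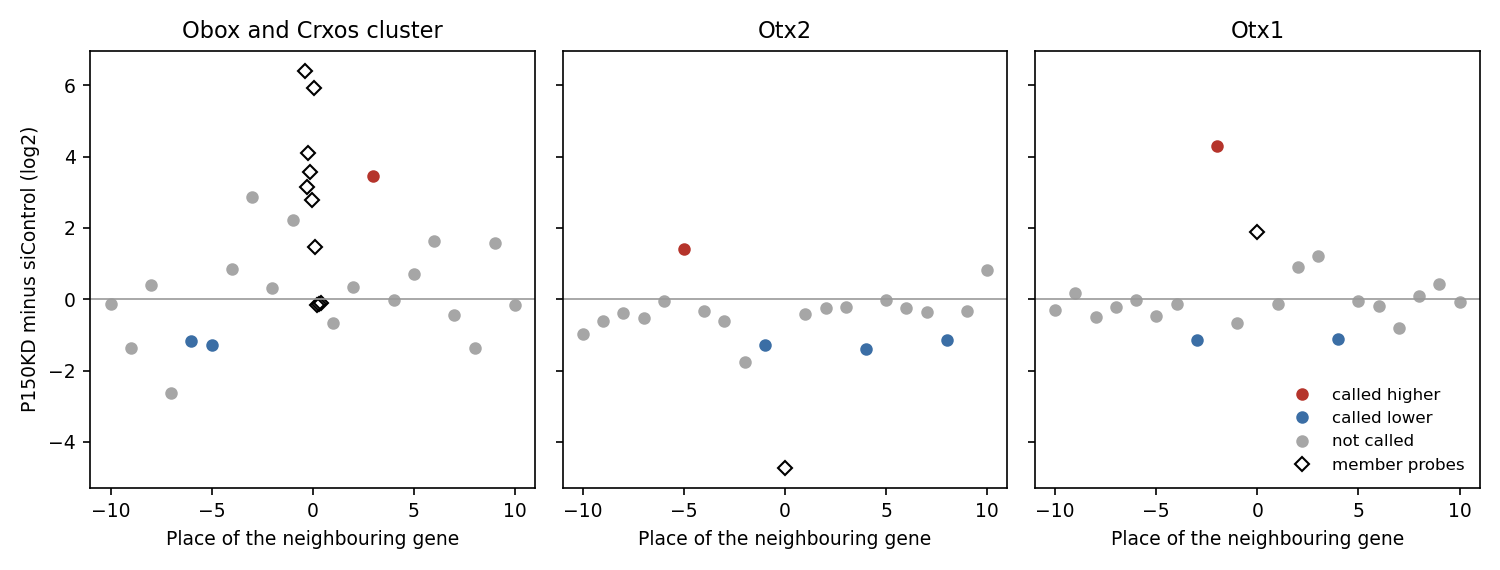
Difference of the 10 nearest tested genes on each side of the Obox and Crxos cluster, Otx2 and Otx1, P150KD minus siControl, on the y axis (log2), with the gene's place in the RefSeq order on the x axis and the member probes as open diamonds at place 0. Neighbours of Otx2 lie between -1.75 and 1.41, above Otx2 at -4.73.

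All 16 morula markers of the list were well enough above background to be tested. Of these 16, 0 rose and 6 fell (0 higher at an unadjusted p under 0.05 in limma), beside 6.65% risen and 10.5% fallen among all tested genes. The falls were led by Id2, the keratin gene Krt18 (-3.09, SE 0.33), Sox2 and the trophectoderm factor gene Tead4 (-0.87, SE 0.19). Scaled to the housekeeping list, the median of these markers was -0.13 in place of -0.63, with 2 higher and 4 lower at an unadjusted p under 0.05 in place of 0 and 7. The housekeeping list itself had 0 risen and 7 fallen of 27 tested, a share of 25.9% that is also above the 10.5% fallen among all tested genes. As sums of signals divided by the array's 75th percentile, the morula markers came to 504 to 607 on the P150KD arrays and 797 to 881 on the siControl arrays. Of 13 cumulus and granulosa markers, 5 were tested and 0 called (1 at an unadjusted p under 0.05 in limma), and Fshr, Cyp11a1, Has2, Ptx3, Tnfaip6 and Ptgs2 were not well above background on any array. Their scaled sum was 8.22 to 16.9 in P150KD and 7.21 to 8.07 in siControl, without overlap, but Amhr2 had the highest signal of the 5 and dominates that sum. The rest were split, with overlap between the groups on each. Inhbb (1.96, SE 1.19) and Foxl2 (0.17, SE 0.25) had higher means in P150KD. Star (-2.17, SE 1.86) and Cyp19a1 (-0.53, SE 0.57) had lower means. Amhr2, a hormone receptor gene of granulosa cells, averaged 3.34 ± 0.48 in P150KD and 2.34 ± 0.28 in siControl (SD, n = 5 and 3), a difference of 1.00 (SE 0.31, limma adjusted p = 0.0707) without overlap. Of 12 sperm markers, 7 were tested and 0 called (2 higher and 0 lower at an unadjusted p under 0.05 in limma). Of the 7, 6 had the higher mean in P150KD, with Odf2 (-0.44, SE 0.23) the exception. Their median difference was 1.82, and -0.22 when blocked on the slide column. Gapdhs differed by 2.35 (SE 0.65, limma adjusted p = 0.0527) without overlap. Their scaled sum, which the bright Odf2 dominates, was 5.09 to 10.4 in P150KD and 8.14 to 10.9 in siControl. Otx2 is also a gene of the retina and pineal gland. Of 15 markers of these tissues 9 were tested and 1, the phosphodiesterase gene Pde6a, rose (5.13, SE 0.97). That is 11.1% called, beside 17.1% of all tested genes. Pde6a was well above background on 2 of 3 siControl arrays, so the size depends on a value near the floor. Rcvrn was not well above background on any array. The scaled sum of these markers was 4.39 to 7.96 in P150KD and 1.47 to 3.74 in siControl. The part of these cells in the results was not tested.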

How the data were processed

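Gene expression was measured on 8 one-colour arrays, 5 P150KD and 3 siControl. The spot intensities come from Agilent Feature Extraction 10.5.1 and, per the file headers, had background subtracted and spatial trends removed by the authors' software, with no step between arrays; flags and spot positions were taken from the same files. The log2 values of the deposited series table matched these signals after scaling by the 75th percentile and centring per probe, within 0.1 for at least 99.97% of values. The array design is annotated on mm9, per the file headers.

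Control spots were left out, spots of 1 probe were averaged, and the 75th percentile of each array (819 to 1304 over the 55681 probes) was subtracted on the log2 scale. Probe names came from RefSeq accessions: 27235 probes received 1 symbol. P150KD was compared with siControl with limma 3.58.1 in R 4.3.3 (lmFit, then eBayes; two-sided, without covariates; Benjamini-Hochberg over 30348 probes, threshold 0.05); the brightest tested probe stood for a gene in lists and neighbours. The members and lists were chosen with earlier results of these data known. Genes named from a list are the 4 with the smallest p, with called neighbours and the 5 or 3 most similar genes. Rhox9, Obox7, Foxl2 and the markers named as not above background were added after the values were seen. A rise from below background is given against the dimmest well-above-background signals of the siControl arrays, which is an estimate and no strict minimum. The fit was tested on simulated data. Alternatives were normexp, quantile normalization, scaling to the median or to the housekeeping list, the series table, other filters, a replicate or slide column block, other variance models and array weights, the mean of a gene's probes for lists, and leaving out each array. The number of arrays limits the precision. Alignments used Biopython 1.88. Some genes of the lists are counted but not reported here by name.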

Additional observations from a re-analysis of the deposited data

Results flagged for a closer look

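With 5 P150KD arrays per probe, 14 probes of the Otx, Obox and Crxos genes and of Obox7 and Chaf1a were examined for an array that stands far from the others, and chance flags about 1 in 20 such groups. P150KD replicate 3 stood apart on 2 Obox probes. On the Obox1 probe marked b it read -1.40 beside 0.50 to 1.03 on the other P150KD arrays, still above the siControl arrays at -3.11 to -2.47. On the Obox3 probe marked a it read -6.93 beside -0.23 to 0.47 on the other P150KD arrays, below the siControl arrays at -6.64 to -3.93.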

How the results depend on the processing

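The Otx2 difference stayed between -5.21 and -4.23 over 19 alternatives, and the 7 Obox probes kept a positive difference in each alternative in which they were tested. Otx1 turned to -0.77 when the slide column was a block. The Crxos probes turned positive when scaled to the housekeeping list, and some of them under other alternatives. With quantile normalization a was 0.05 and c 0.10. With the replicate block a was 0.08 and b 0.18, and blocked on the slide column a was 0.10 and b 0.49. Leaving out 1 array took b as high as 0.05. The normexp correction lowered the Obox1 probe a to 3.66 and Obox5 to 2.68. The calls of Otx2 and both Obox1 probes were lost when the slide column was a block, and those of all members with the replicate block. Calls were gained for Obox3 probe b with the filter on all 8 arrays, with array weights and without P150KD replicate 2. Obox3 probe a was called without P150KD replicate 3. Among all tested probes, 1907 were called higher and 2324 lower. The lower count was 1487 with quantile normalization and 1512 with scaling to the array median. Scaled to the housekeeping list 3484 were higher and 550 lower, a split of 86.4% higher in place of 45.1% (58.2% with quantile normalization), and the median of all genes was 0.27 in place of -0.24. Blocking on the slide column, where P150KD replicate 1 alone carries the contrast, 442 were higher and 271 lower. Leaving out 1 array gave 1016 to 1770 higher and 690 to 1979 lower, with both lowest values without siControl replicate 1. With the replicate number as a replicate block 0 were higher and 0 lower in limma, with 6371 probes at an unadjusted p under 0.05, and the Otx2 difference was -4.49. No sign was seen that the numbers pair the arrays. Deviations of same-numbered arrays correlated at -0.014, -0.074 and -0.017, and 0 of these 3 P150KD arrays correlated best with their own number. With so few arrays this cannot settle whether same-numbered arrays share a collection, and the labels do not say.

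List counts moved by over 1.5 times in these cases. Scaled to the housekeeping list, 13 other homeobox genes rose, 2 fell, and 5 Otx2-linked genes rose. Blocking on the slide column, 2 paired-like genes rose, 0 other homeobox genes rose and 1 fell, 0 Otx2-linked genes rose and 0 fell (2 and 4 at an unadjusted p under 0.05 in limma), and 6 2-cell and 3 oocyte genes rose. Averaging a gene's probes, 2 Otx2-linked genes rose. Leaving out 1 array, an alternative added after the data were seen, gave 3 to 6 paired-like genes risen, 4 to 8 other homeobox genes risen and 1 to 6 fallen, 0 to 3 Otx2-linked genes risen, 7 to 13 2-cell genes risen, and 4 to 7 oocyte genes risen and 0 to 1 fallen. The cause of these moves was not tested.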
